A study of Homo sapiens with 4 samples.

Results

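The genes of the cap-binding machinery of translation were examined in MV4-11, a human acute myeloid leukemia (AML) cell line, upon knockdown of CEBPG. The members are 10 genes taken by symbol: EIF4EBP1 and EIF4EBP2, which encode 4E-binding proteins (4E-BPs), EIF4E, EIF4E2 and EIF4E3, which encode cap-binding proteins, and EIF4G1, EIF4G2, EIF4G3, EIF4A1 and EIF4B. They are 10 of the 16490 genes of the table and hold 31 of its 28581 transcripts with values. The group was chosen by the large decrease of EIF4EBP1 FPKM in the same comparison, and its partners were added by name. The members' fold changes are therefore given as a description, without p-values, and which of them passed the threshold is stated as a description too. The other gene lists were also chosen with earlier results of these data known. Adjusted p-values printed for their genes are therefore a description as well.

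All 4 libraries came from MV4-11 cells, which by the paper's general methods were infected with lentivirus and selected with puromycin as stable lines. Of these, 2 carried the control hairpin sh-NC and 2 carried sh-CEBPG#3, which targets CEBPG, a leucine-zipper transcription factor. The paper names pLKO.1-puro as the vector of the CEBPG hairpins and does not describe that of sh-NC. Separate infections for the libraries of a group are not given in the sources used here, so the spread between them may be technical. A single CEBPG hairpin was sequenced, and an effect of CEBPG and an effect of this hairpin cannot be told apart. Values are FPKM (fragments per kilobase of exon model, in proportion to all mapped reads), a level per length that can be set side by side between genes. The number of reads behind each value is unknown.

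The cap of an mRNA is bound by eIF4E, which joins the scaffold eIF4G and the RNA helicase eIF4A in the complex eIF4F, and this complex brings the small ribosomal subunit to the mRNA. The 4E-BPs hold eIF4E away from eIF4G. Phosphorylation by mTORC1 makes them let go, so that the balance of 4E-BP and eIF4E sets how much cap-dependent translation follows from mTORC1 activity. RNA levels report neither phosphorylation nor protein.

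CEBPG itself was 30.4 and 33.6 FPKM with sh-NC and 19.2 and 17.1 FPKM with sh-CEBPG#3. Of 8 myeloid or AML markers, all were listed with values, and their summed level was 892 to 970 FPKM in sh-NC libraries and 3373 to 3547 FPKM in sh-CEBPG#3 libraries. The monocyte gene LYZ made up most of that sum, at 567 to 3126 FPKM over the 4 libraries, and the other 7 summed to 325 and 360 FPKM in control and 421 and 391 FPKM in knockdown libraries. Of the 8, 4 were called higher and 2 lower in limma, where 18.5% of all genes tested were called higher and 23.8% lower. The higher ones were LYZ (log2 fold change 2.37), MPO (0.62), CD33 (0.37) and SPI1 (0.33). The lower ones were HOXA9 (-0.36) and MEIS1 (-0.87). These genes were named after their values were seen. Of the markers of other cell types, CD3D, CD3E, MS4A1, EPCAM and ALB were not listed, and COL1A1 stayed below 0.4 FPKM in every library. PECAM1, which myeloid cells also express, was 18.5 and 21.8 FPKM with sh-NC and 43.4 and 40.8 FPKM with sh-CEBPG#3. It was called higher, with a log2 fold change of 1.03. In a bulk sample, fewer cells of a type and less RNA per cell cannot be told apart. Whether the shifts of these genes play a part in the changes below was not tested.

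The 2 genes of the 4E-BPs and 3 of the scaffold and helicase cofactor genes were lower upon CEBPG knockdown, and no member was higher. Of the 10 members, 5 were called lower in limma at a Benjamini-Hochberg adjusted p under 0.05 and 0 were called higher, in a comparison in which 42.2% of the 12142 genes tested were called, 23.8% lower and 18.5% higher. The 5 were EIF4EBP1, EIF4EBP2, EIF4G1, EIF4G3 and EIF4B. Without sh-CEBPG#3 replicate 1 or replicate 2 the calls of EIF4G1 and EIF4B were lost, while their log2 fold changes moved little. These were -0.28 and -0.32 for EIF4G1, and -0.24 and -0.21 for EIF4B. In such a fit 1 library stands alone in its group, and the spread between libraries comes from the other group. The median log2 fold change of the members was -0.26, and that of all genes tested was -0.04. The groups did not overlap for 7 members, each of them lower, where 71.7% of all genes tested had no overlap, 40.2% lower and 31.5% higher. On the log2(FPKM + 1) scale EIF4EBP1 was the only member past the threshold of the study. That threshold is a log2 fold change beyond 1 in size with an unadjusted p under 0.05, which the study applied in DESeq2. Here 3.41% of genes passed it, with 1.05% of genes passing it as lower. With 0.1 or 0.01 FPKM added in place of 1, the log2 fold change of EIF4EBP2 was -1.03 or -1.04, beyond 1 in size. Since the members were chosen with this comparison known, nothing is read from these counts.

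**Figure D1:**
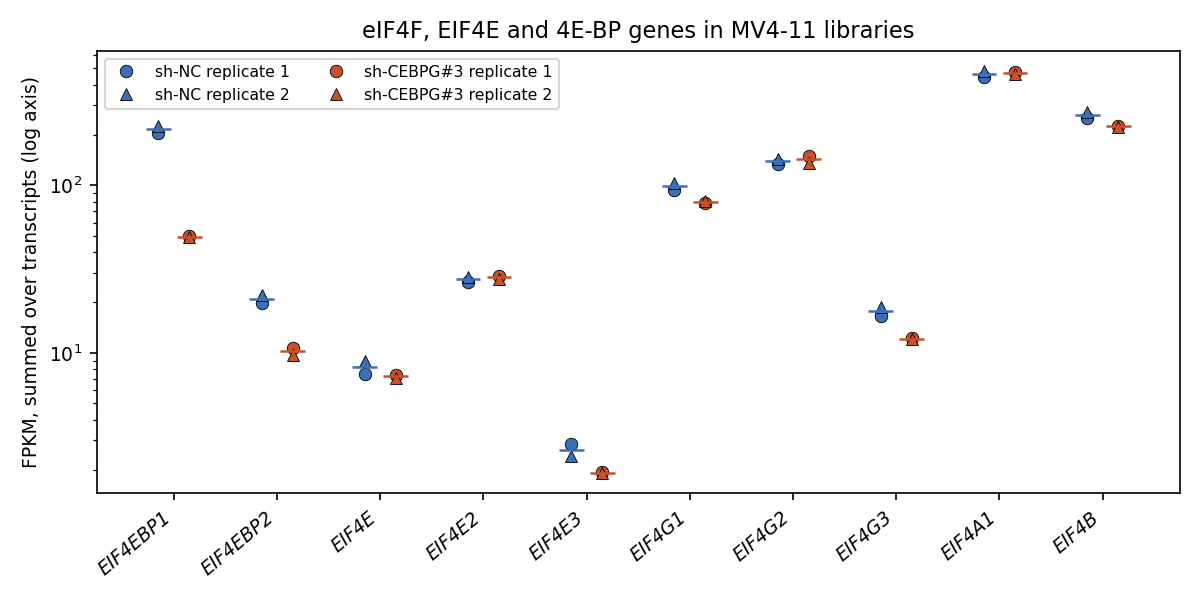
FPKM of each member, summed over its transcripts, in the 4 libraries on a log axis, with sh-NC in blue, sh-CEBPG#3 in orange and a line at each group's mean. EIF4EBP1 went from 205 and 226 FPKM to 49.97 and 48.9 FPKM, and EIF4A1 stayed between 441 and 482 FPKM.

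Among the inhibitors, EIF4EBP1 lies on chromosome 8 (38030534 to 38060365, GRCh38.p14) and was listed by 1 transcript, NM_004095. It had 205 and 226 FPKM with sh-NC and 49.97 and 48.9 FPKM with sh-CEBPG#3. The groups did not overlap, and every control value was above every knockdown value. In sh-NC cells its level was above that of 98.4% of the genes tested, the third highest of the members after EIF4A1 and EIF4B. In sh-CEBPG#3 cells it was the fifth, below EIF4G1.

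EIF4EBP2, a close relative of EIF4EBP1 with the same activity toward eIF4E, lies on chromosome 10 (70404145 to 70428618) and was also listed by 1 transcript, NM_004096. It had 19.8 and 22.1 FPKM with sh-NC and 10.7 and 9.71 FPKM with sh-CEBPG#3, with no overlap. The means were 21.0 ± 1.64 FPKM and 10.2 ± 0.696 FPKM (SD, n = 2 each), 48.7% of the control level. On the log2(FPKM + 1) scale, the one used for all fold changes here, the change was -0.97 with a standard error of 0.09. It stayed between -1.05 and -0.89 when any library was left out.

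EIF4EBP1 mRNA was in large excess over EIF4EBP2 mRNA in both groups, and the excess shrank upon knockdown. The ratio of EIF4EBP1 to EIF4EBP2 was 10.4 and 10.2 with sh-NC and 4.67 and 5.03 with sh-CEBPG#3. EIF4EBP1 accordingly made up 91.2% and 91.1% of the summed FPKM of both genes in control cells and 82.4% and 83.4% in knockdown cells. The summed 4E-BP level was 225 and 249 FPKM in sh-NC libraries and 60.7 and 58.6 FPKM in sh-CEBPG#3 libraries, 25.2% of the control mean.

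EIF4EBP3, the remaining 4E-BP gene, is no member and was read from a list of regulators. It had 3.96 and 4.01 FPKM with sh-NC and 1.38 and 1.71 FPKM with sh-CEBPG#3. It was lower, at a log2 fold change of -0.97 (standard error 0.11, adjusted p = 0.00011 in limma). The row that joins it to the neighbouring gene, ANKHD1-EIF4EBP3, was 8.60 and 9.58 FPKM in control and 9.44 and 8.81 FPKM in knockdown libraries, where the groups overlap. Reads in shared exons can be divided between these rows in either way.

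Among the cap-binding proteins, EIF4E is the subunit of eIF4F, EIF4E2 encodes 4EHP, which binds the cap without joining eIF4G and is known for repressing translation, and EIF4E3 encodes a further cap-binding relative. EIF4E lies on chromosome 4 (98879276 to 98929133) and was the second lowest member. It had 7.43 and 8.93 FPKM with sh-NC and 7.41 and 7.10 FPKM with sh-CEBPG#3. The groups were apart by only 0.02 FPKM, less than the gap between the libraries of either group. The log2 fold change was -0.15, with a 95% interval from -0.37 to 0.08, and it was not called.

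EIF4E2 (chromosome 2, 232550689 to 232583644) was the most abundant of the 3. It had 26.6 and 28.5 FPKM with sh-NC and 28.7 and 27.8 FPKM with sh-CEBPG#3, and the groups overlapped. The log2 fold change was 0.04, with an interval from -0.13 to 0.21. Its sign turned without sh-NC replicate 1.

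EIF4E3 (chromosome 3, 71659363 to 71754773) was the lowest member. It had 2.86 and 2.41 FPKM with sh-NC and 1.93 and 1.91 FPKM with sh-CEBPG#3. The values did not overlap, and the log2 fold change of -0.31 (interval from -0.57 to -0.06) was not called at the filter used. It was called when the filter was a mean of at least 1 FPKM, and without sh-NC replicate 2.

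**Figure D2:**
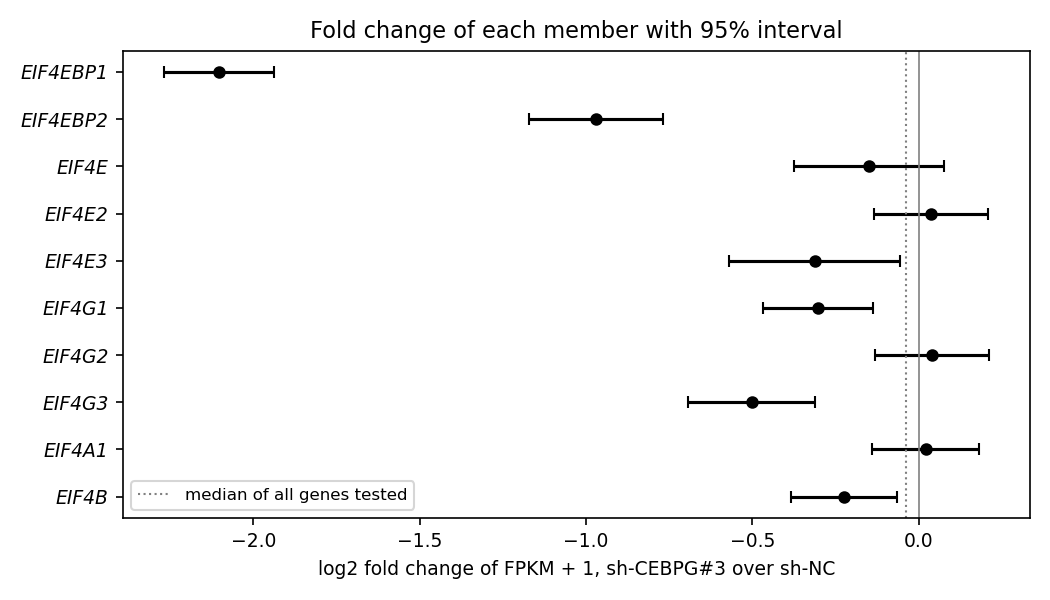
Log2 fold change of FPKM + 1 for each member, sh-CEBPG#3 over sh-NC, with 95% intervals from limma and a dotted line at the median of all genes tested, -0.04. The intervals of EIF4E, EIF4E2, EIF4G2 and EIF4A1 include 0, and that of EIF4EBP1 lies below all others.

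The ratio of summed 4E-BP to EIF4E mRNA fell to 28.3% of its control level. It was 30.3 and 27.8 with sh-NC and 8.19 and 8.25 with sh-CEBPG#3, with means of 29.0 ± 1.74 and 8.22 ± 0.0466 (SD, n = 2 each). The ranges do not overlap. An exact two-sided permutation test of 2 libraries against 2 cannot give a p under 0.333, and since EIF4EBP1 chose the group, no test was made. The ratio of EIF4EBP1 alone to EIF4E was 27.6 and 25.3 in control and 6.74 and 6.89 in knockdown libraries. That of EIF4EBP2 was 2.67 and 2.48 in control and 1.44 and 1.37 in knockdown libraries. Both 4E-BP genes were still above EIF4E at the RNA level after knockdown.

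The ratios of the other eIF4F subunits to EIF4E moved little beside this. EIF4G1 to EIF4E was 12.7 and 11.6 in control and 10.6 and 11.4 in knockdown libraries. EIF4A1 to EIF4E was 59.4 and 54.0 in control and 64.1 and 65.0 in knockdown libraries. Relative to EIF4G1, whose protein competes with 4E-BPs for eIF4E, summed 4E-BP went from 2.39 and 2.40 to 0.769 and 0.725. The mRNA of the 4E-BPs was thus above that of EIF4G1 in both control libraries and below it in both knockdown libraries.

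**Figure D3:**
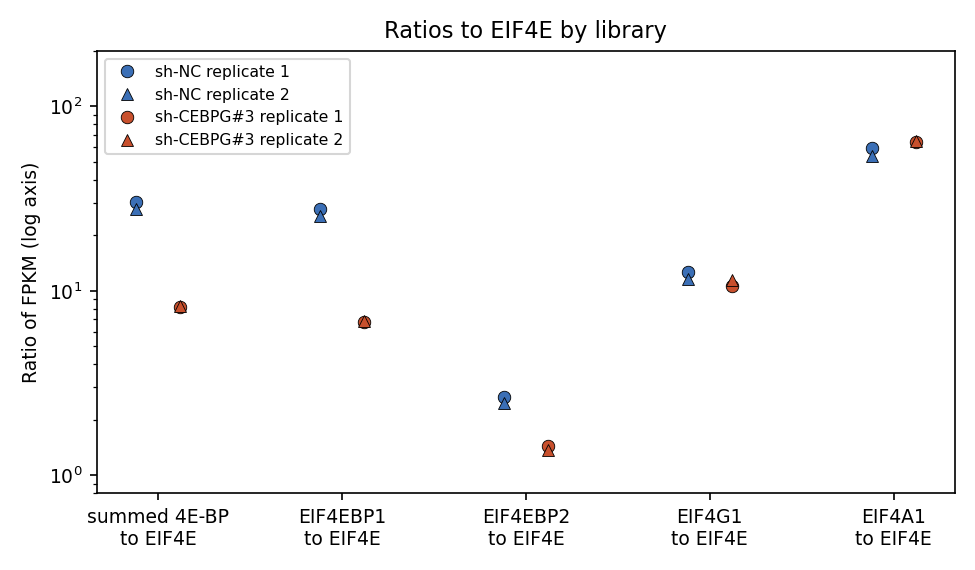
Ratios of FPKM to EIF4E in each library on a log axis, with sh-NC in blue and sh-CEBPG#3 in orange. The ratio of summed 4E-BP is 30.3 and 27.8 with sh-NC and 8.19 and 8.25 with sh-CEBPG#3, while the EIF4G1 ratio stays between 10.6 and 12.7.

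Of the scaffold genes, EIF4G1 encodes the main eIF4G of the complex, EIF4G3 encodes its paralog eIF4GII, and EIF4G2 encodes DAP5, which lacks the eIF4E-binding region and serves cap-independent initiation. EIF4G1 (chromosome 3, 184314606 to 184335358) had 94.1 and 103.6 FPKM with sh-NC and 78.9 and 80.9 FPKM with sh-CEBPG#3. Both knockdown values were below both control values, at 80.8% of the control mean. The log2 fold change was -0.30 (standard error 0.07), and it was no longer called without either sh-CEBPG#3 library (-0.28 and -0.32).

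EIF4G3 (chromosome 1, 20806292 to 21176897) had 16.7 and 18.7 FPKM with sh-NC and 12.2 and 12.1 FPKM with sh-CEBPG#3. The knockdown libraries lay closer to each other than the control libraries did, and the groups were apart. The log2 fold change was -0.50 (standard error 0.09), the largest decrease outside the 4E-BPs among the members. Leaving out any library kept it between -0.58 and -0.42.

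EIF4G2 (chromosome 11, 10797046 to 10808926) had 135 and 144 FPKM with sh-NC and 151 and 136 FPKM with sh-CEBPG#3. The groups overlapped, and the log2 fold change was 0.04 (interval from -0.13 to 0.21), with a change of sign without sh-NC replicate 1 or sh-CEBPG#3 replicate 1. EIF4G2 was the most abundant of the 3 scaffold genes in both groups.

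The helicase gene EIF4A1 (chromosome 17, 7572825 to 7579006) had the highest level of the members. It had 441 and 482 FPKM with sh-NC and 475 and 461 FPKM with sh-CEBPG#3. The groups overlapped, with a log2 fold change of 0.02 (interval from -0.14 to 0.18) whose sign turned with equal FPKM totals and with quantile normalization. EIF4A1 made up 36.8% of the summed FPKM of the members in each sh-NC library and 45.6% and 45.7% in the sh-CEBPG#3 libraries, as the other members' sum fell. The readthrough row SENP3-EIF4A1 was 9.68 and 4.56 FPKM in control and 0.973 and 0.809 FPKM in knockdown libraries.

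EIF4B (chromosome 12, 53006456 to 53042215), which stimulates the helicase, was the second most abundant member. It had 252 and 275 FPKM with sh-NC and 227 and 223 FPKM with sh-CEBPG#3, with no overlap. The log2 fold change of -0.23 (standard error 0.07) was the smallest of those called. Leaving out sh-NC replicate 2, sh-CEBPG#3 replicate 1 or sh-CEBPG#3 replicate 2 ended the call (-0.16, -0.24 and -0.21).

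In each group the order of the 10 levels was clear of the spread between libraries, since no range overlapped that of the next gene. From the highest to the lowest the order in sh-NC cells was EIF4A1, EIF4B, EIF4EBP1, EIF4G2, EIF4G1, EIF4E2, EIF4EBP2, EIF4G3, EIF4E and EIF4E3. In sh-CEBPG#3 cells EIF4EBP1 stood behind EIF4G2 and EIF4G1, and EIF4EBP2 stood behind EIF4G3. The other members kept their order relative to each other. The summed FPKM of the 10 members was 1201 and 1313 in control and 1043 and 1009 in knockdown libraries. Most of this fall was that of EIF4EBP1, the gene that chose the group, whose mean went from 215.8 to 49.4 FPKM.

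Transcript shares moved in some members whose sums did not. For EIF4E, transcript NM_001968 held 97.2% and 96.8% of the gene's FPKM with sh-NC and 65.9% and 30.3% with sh-CEBPG#3. In its place NM_001130679 went from 0.135 and 0.142 FPKM to 2.53 and 4.95 FPKM, or from 1.81% and 1.59% of the gene to 34.1% and 69.7%. The groups did not overlap, but the sh-CEBPG#3 libraries differed from each other by 35.6 percentage points. Read from NM_001968 alone, the log2 fold change of EIF4E was -1.05 (standard error 0.34) and was not called. The third transcript, NM_001130678, had 0.0733 and 0.148 FPKM with sh-NC and was listed at 0 in both sh-CEBPG#3 libraries.

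For EIF4A1, transcript NM_001204510 had 49.0 and 26.0 FPKM with sh-NC and 9.23 and 7.74 FPKM with sh-CEBPG#3. Its share was 11.1% and 5.39% in control and 1.94% and 1.68% in knockdown libraries. The main transcript NM_001416 had 392 and 456 FPKM in control and 466 and 454 FPKM in knockdown libraries, which overlap. NM_001204510 and the SENP3-EIF4A1 row were both lower upon knockdown and both higher in sh-NC replicate 1 than in sh-NC replicate 2, and reads in exons that they share cannot be told apart.

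For EIF4G1, with 7 transcripts, NM_198241 held 84.2% and 80.3% of the gene with sh-NC and 67.3% and 75.9% with sh-CEBPG#3. NM_198244 held 5.98% and 12.3% in control and 18.2% and 17.5% in knockdown libraries. The main transcript of EIF4G1 went from 79.2 and 83.2 FPKM to 53.1 and 61.4 FPKM, a log2 fold change of -0.50 that was not called in the fit per transcript.

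EIF4G2 showed how far shares can move between libraries of a group. NM_001418 held 56.9% and 77.2% with sh-NC and 52.7% and 73.6% with sh-CEBPG#3, so the libraries of a group differed by 20.2 and 20.9 percentage points around group means of 67.0% and 63.1%. In EIF4E3 the share of NM_173359 was 46.3% and 18.1% in control libraries and 0% and 76.4% in knockdown libraries. Shares were steadier in EIF4G3, with NM_001198801 at 93.9% to 95.3% over the 4 libraries, and in EIF4B, with NM_001417 at 69.7% to 71.9%. In EIF4E2 the main transcript NM_004846 held 62.8% and 60.3% in control and 54.0% and 57.5% in knockdown libraries.

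Over the members with several transcripts, 21 transcripts had a mean of at least 0.5 FPKM, and the shares of 9 of them did not overlap between the groups. Over all such transcripts of the table that was so for 40.6%, close to the 42.9% of the members. In a fit per transcript, 5 of the 23 member transcripts tested were called, where 8.24% of all transcripts were. These were NM_004095, NM_004096, NM_001198801 of EIF4G3 and NM_001204510 of EIF4A1, each lower, and NM_001130679 of EIF4E, which was higher. NM_001130679 had a sh-NC mean of 0.138 FPKM and passed the filter only through its sh-CEBPG#3 values. NM_004095 is the transcript of EIF4EBP1, whose decrease chose the group. Nothing is read from this count either. Division of reads among overlapping transcripts is an estimate, and its error was not given with the values.

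**Figure D4:**
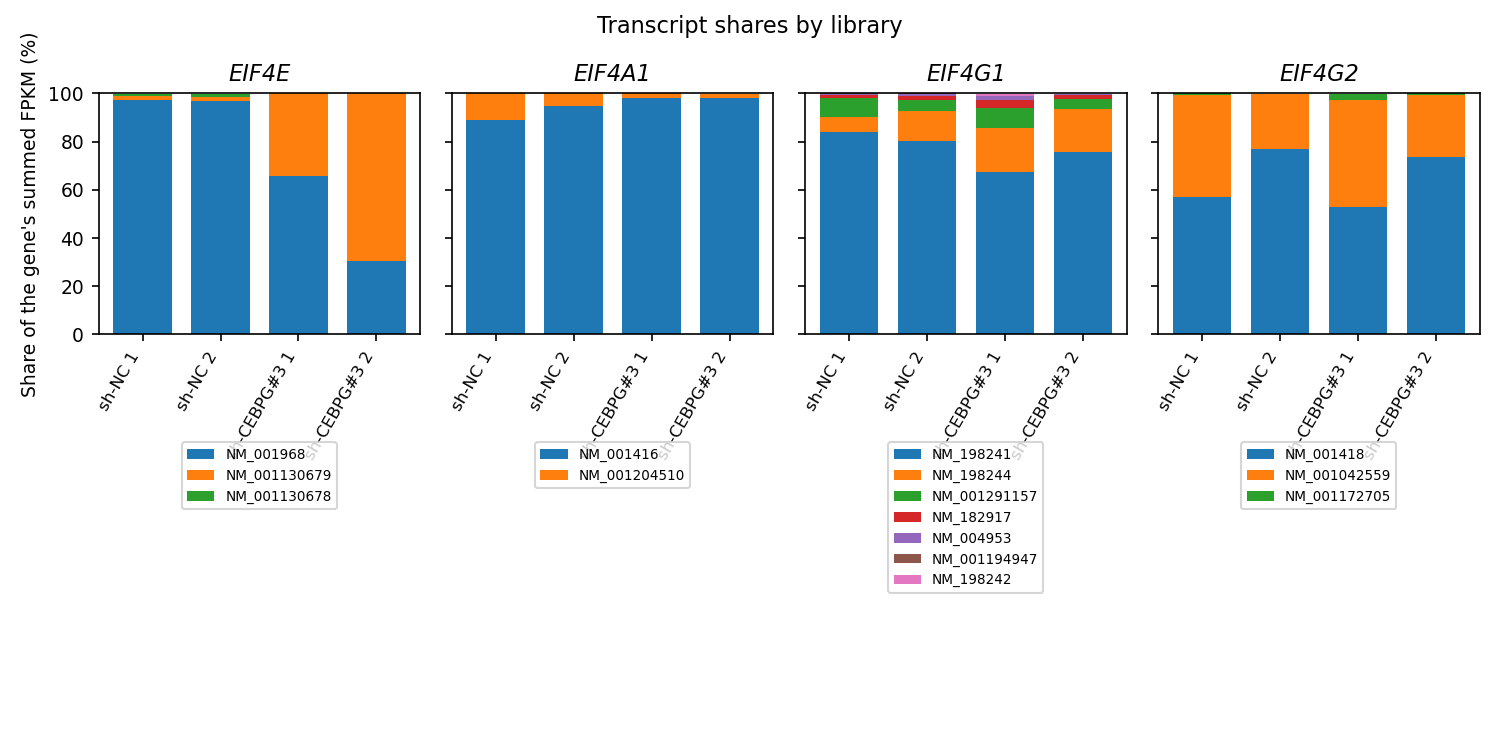
Share of each RefSeq transcript in the summed FPKM of EIF4E, EIF4A1, EIF4G1 and EIF4G2 in each library, as stacked bars that add up to 100%. In EIF4E, NM_001968 goes from 97.2% and 96.8% to 65.9% and 30.3%, and in EIF4G2 the libraries of a group differ more than the groups do.

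Genes whose pattern over the 4 libraries lay closest to that of EIF4EBP1 were sought among 12132 other genes, by the Euclidean distance of log2(FPKM + 1) values after subtracting the sh-NC mean. The closest was AQP3, a water and glycerol channel, at a distance of 0.15, with 9.84 and 10.2 FPKM in control and 1.41 and 1.40 FPKM in knockdown libraries. Also among the nearest 5 were the pseudogene NUDT4P2, GOLGA8R, of a family of near-identical copies, and the readthrough row TMX2-CTNND1. Their levels were below 5 FPKM in every library, NUDT4P2 and TMX2-CTNND1 were listed at 0 in both sh-CEBPG#3 libraries, and their reads can be shared with other rows. On this scale changes of low genes are understated. Low genes, AQP3 among them, can therefore lie near EIF4EBP1 with a larger relative decrease in FPKM.

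Of 19 further genes of the cap complex and its regulators, 5 were lower, 1 was higher and 13 were not called, where 42.2% of all genes tested were called, with a median log2 fold change of 0.00. Beside EIF4EBP3, GIGYF2, a partner of 4EHP in translational repression, fell from 9.09 and 10.04 FPKM to 5.07 and 4.47 FPKM (log2 fold change -0.87, standard error 0.10, adjusted p = 8.81e-05 in limma). PAIP1, which binds poly(A)-binding protein and promotes initiation, fell from 18.5 and 19.6 FPKM to 13.4 and 13.5 FPKM (-0.47, standard error 0.08, adjusted p = 0.00108). MKNK2, a kinase that phosphorylates eIF4E, rose from 33.4 and 36.6 FPKM to 54.8 and 52.9 FPKM (0.61, standard error 0.08, adjusted p = 0.000188). These genes were picked as the called ones of largest change, so their adjusted p-values are a description.

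The 2 other lower genes, PAIP2 (-0.26) and GIGYF1 (-0.25), were named after their values were seen. Their calls did not hold with each library left out: PAIP2 was called only when sh-NC replicate 1 was the library left out, and GIGYF1 in none of the 4 fits. The uncalled genes of highest level were PABPC1, the main poly(A)-binding protein (0.06, interval from -0.10 to 0.23), and EIF4H, a cofactor of eIF4A (-0.21, interval from -0.38 to -0.03). With equal FPKM totals or quantile normalization 10 of the 19 were called, EIF4H among them, 7 lower and 3 higher. EIF4H was also called without sh-NC replicate 1 (-0.29).

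Among genes of mTORC1 and its inputs, the kinase complex that phosphorylates 4E-BPs, 23 of the 24 listed had a mean of at least 0.5 FPKM. Of these, 2 were lower and 7 were higher, with a median log2 fold change of 0.14, where 23.8% of all genes tested were lower and 18.5% were higher. The lower genes were RPTOR, the subunit that recruits 4E-BPs to the kinase, and DEPTOR, an inhibitor of mTOR. RPTOR fell from 8.22 and 9.39 FPKM to 6.03 and 5.60 FPKM (-0.52, standard error 0.10, adjusted p = 0.00189 in limma). DEPTOR fell from 1.03 and 1.38 FPKM to 0.223 and 0.292 FPKM (-0.81, standard error 0.14). DEPTOR passed the filter only through its sh-NC values, so no p is given for it. With 0.1 or 0.01 FPKM added in place of 1, its log2 fold change was -1.86 or -2.18. At a filter of a mean of at least 1 FPKM DEPTOR was not tested, and 1 mTORC1 gene was lower and 7 were higher.

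The higher genes included RRAGB, a Rag GTPase that brings mTORC1 to the lysosome, which rose from 3.88 and 3.57 FPKM to 7.37 and 6.08 FPKM (0.70, standard error 0.11, adjusted p = 0.000647 in limma). SESN1, an inhibitor of the amino acid branch of the pathway, rose from 16.4 and 16.2 FPKM to 27.0 and 24.3 FPKM (0.62, standard error 0.08, adjusted p = 0.000242). The adjusted p-values of RPTOR, RRAGB and SESN1, picked as called genes of largest change, are a description. The other 5 higher genes, LAMTOR4, RHEB, RRAGC, RRAGA and LAMTOR3, had log2 fold changes from 0.30 to 0.51. They were named after their values were seen. Of these, RRAGC was not called without sh-CEBPG#3 replicate 1 (0.26), RRAGA without sh-CEBPG#3 replicate 2 (0.31), and LAMTOR3 without sh-NC replicate 1 (0.24) or sh-CEBPG#3 replicate 1 (0.20). Among the genes called in the main fit, SESN1 was the only inhibitor of mTORC1 that was higher, and DEPTOR the only one that was lower. MTOR itself was 7.18 and 7.65 FPKM in control and 7.64 and 7.49 FPKM in knockdown libraries. Of the uncalled genes of highest level, DDIT4 had 0.15 (interval from -0.01 to 0.31) and LAMTOR5 had 0.14 (interval from -0.05 to 0.33). DDIT4, which also inhibits mTORC1, was called higher with equal FPKM totals (0.13) and with quantile normalization (0.14). Without sh-NC replicate 2, 14 of these genes were called, 2 lower and 12 higher.

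Of 12 mRNAs whose translation is known to depend strongly on eIF4E, 11 were tested at the RNA level, where 5 were lower, 2 were higher and 4 were not called, with a median log2 fold change of -0.10 (-0.04 over all genes tested, of which 42.2% were called). PIM1, a kinase, fell from 58.5 and 60.9 FPKM to 21.4 and 19.6 FPKM (-1.496, standard error 0.08, adjusted p = 5.49e-07 in limma). BIRC5, which encodes survivin, fell from 24.6 and 24.7 FPKM to 11.8 and 11.9 FPKM (-0.996, standard error 0.08, adjusted p = 7.75e-06). MYC fell from 217 and 249 FPKM to 140 and 136 FPKM (-0.75, standard error 0.08, adjusted p = 6.48e-05). PIM1, BIRC5, MYC and ODC1 were picked as the called genes of largest change, so their adjusted p-values are a description.

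ODC1, the first enzyme of polyamine synthesis, fell from 68.2 and 74.8 FPKM to 43.4 and 41.3 FPKM (-0.74, standard error 0.08, adjusted p = 5.32e-05 in limma). CCND1 (-0.71), MCL1 (0.48) and BCL2L1 (0.27) were also called and were named after their values were seen, and BCL2L1 lost its call with each of the 4 libraries left out (0.24 to 0.31). CCND3 (-0.10, interval from -0.27 to 0.08) and VEGFA (0.07, interval from -0.09 to 0.23) were the uncalled genes of highest level. CCND3 was called with equal FPKM totals (-0.12) and with quantile normalization (-0.19).

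Promoters of 9 of the 10 members, all but EIF4EBP1, with 16 windows in all, were read from the RefSeq promoter table (GRCh38.p14, 250 bases before to 50 after each annotated start, on the strand of the gene). Since CEBPG binds C/EBP sites and pairs with ATF4, the letters TGATGNAA of the C/EBP-ATF composite site and TTGCNNAA of a C/EBP site were searched on both strands. Since EIF4E is a known target of MYC, the E-box CACGTG was searched as well, and these motifs were chosen with the values known. The composite letters occurred in 1 member window, of an internal start of EIF4E3, and in 3.62% of all 35116 windows. The C/EBP letters occurred in 0 of these 16 windows, none of them of EIF4EBP1, and in 10.5% of all windows. The E-box occurred in 3 of the 16, those of EIF4E, EIF4G1 and EIF4B, and in 7.26% of all. A match is a run of letters and not a bound site.

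The matches are shown with 10 bases on either side, motif in capitals, and the position of the motif's first base relative to the start. They are shown because EIF4E and EIF4G1 each hold the E-box at 2 places. Of the genes with an E-box, EIF4E was not called, while EIF4G1 and EIF4B were lower, with calls that depended on single libraries. Whether the E-box plays a part was not tested.
EIF4E, position -225, chr4:98929343-98929368, minus strand: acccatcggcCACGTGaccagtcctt
EIF4E, position -72, chr4:98929190-98929215, minus strand: acatatccgtCACGTGgccagaagct
EIF4G1, position -144, chr3:184314452-184314477, plus strand: ctgtggctgtCACGTGacggggcggg
EIF4G1, position -67, chr3:184314529-184314554, plus strand: ctgcgccggtCACGTGggggcgccgg
EIF4B, position -22, chr12:53006424-53006449, plus strand: ccgctataatCACGTGattgcctcat
EIF4E3, position -13, chr3:71729114-71729141, minus strand: gccatggtgaTGATGAAAgttgggctga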

How the data were processed

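RNA-seq libraries of MV4-11 cells carrying sh-NC (n = 2) or sh-CEBPG#3 (n = 2) were compared. The table deposited by the authors gives FPKM per RefSeq transcript in each library, made from filtered reads aligned with HISAT. The submitters' processing notes name HISAT2 2.0.5 and hg38, while the annotation release and the program that computed FPKM are not given in the sources used here. As FPKM are not counts, the count test of the study was not run, depth is unknown, and no detection floor is given.

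FPKM were summed per gene symbol. Genes averaging 0.5 FPKM or more entered limma 3.58.1 (R 4.3.3, eBayes with a trend, no block) as log2(FPKM + 1), with Benjamini-Hochberg adjustment over all 12142 genes and a threshold of 0.05. On this scale changes of low genes are understated. Each fit was checked on simulated data. Intervals are 95% intervals from limma. Members, gene lists and motifs were chosen with earlier results of these data known. Genes named by rule are the members, CEBPG, the 5 genes nearest to EIF4EBP1 in pattern, and readthrough rows. Per list, at most 4 called genes of largest change and 2 uncalled genes of highest mean are added. Further called genes of the lists, MTOR and the marker genes are named outside this rule. Alternatives were other pseudocounts, filters and scalings, a replicate block and leaving out each library. All 31 member accessions were found in the RefSeq gene table of GRCh38.p14. Figures were drawn with Python 3.11.15. Values of a marker gene and of a gene with a pattern close to that of EIF4EBP1 are not reported here.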

Additional observations from a re-analysis of the deposited data

How the results depend on the processing

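Calls of members numbered 5. They were 4 with no filter, 6 at a filter of a mean of at least 1 FPKM and 6 with quantile normalization. With a library left out, 1 library stood alone in its group and was assumed to vary like the others. The call of EIF4B was lost with no filter (-0.23) and under the replicate block. Regulators of the cap complex called rose from 6 to 10 with equal FPKM totals and to 10 with quantile normalization, and were 4 to 6 with a library left out. Called mTORC1 genes were 7 to 14 with a library left out. Among uncalled genes the sign turned for EIF4A1 (-0.00494 with equal totals, and -0.12 with quantile normalization, where it was called), and, with a library left out, for EIF4A1 (-0.0430 to 0.0853), EIF4E2 (-0.0116 to 0.0835), EIF4G2 (-0.0319 to 0.110) and PABPC1 (-0.000886 to 0.122). Tested by its most abundant transcript, EIF4E2 was -0.10 and EIF4G2 was -0.0500, EIF4E moved from -0.15 to -1.05 without being called, and the calls of EIF4G1 (-0.50) and EIF4B (-0.23) were lost. The log2 change of the 4E-BP to EIF4E ratio, -1.82, was -1.95 with all 3 EIF4E genes as denominator, -1.93 with quantile normalization and -1.88 to -1.76 with a library left out. Their cause was not tested.

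The replicate numbers are shared between groups in the titles only, and same-numbered libraries deviated with a correlation of 0.0606. With the replicate block, which leaves 1 residual degree of freedom, 4761 genes were called against 5128, and 4 of the 10 members (EIF4B was lost). Without read counts, the precision of low genes such as EIF4E3 and of transcript shares cannot be judged from depth.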
